A study of Mus musculus with 4 samples.

Results

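The 10 genes described here encode proteins of the extracellular matrix that are neither collagens nor proteoglycans. They are fibronectin (Fn1), the matricellular proteins periostin (Postn), tenascin C (Tnc), thrombospondins 1 and 2 (Thbs1, Thbs2) and SPARC (Sparc), the elastic fibre proteins fibrillin 1 (Fbn1) and elastin (Eln), and the cross-linking enzymes lysyl oxidase (Lox) and lysyl oxidase like 1 (Loxl1). Accessible chromatin was mapped by ATAC-seq, an assay that inserts sequencing adapters into open DNA with the transposase Tn5, in mouse embryonic fibroblasts of the line iMGT-Myh6-eGFP-MEF. Doxycycline at 1 μg/mL switches on the cardiac factors Mef2c, Gata4 and Tbx5 (MGT) in this line, and eGFP in its name stands for a reporter of Myh6, a cardiac myosin gene. The groups are siControl, which received a control siRNA (2 libraries), and siChst7, in which the siRNA targets Chst7, a chondroitin sulfotransferase gene (2 libraries). Peaks do not show how far Chst7 RNA was lowered. All 4 libraries carry the inducible factors, received doxycycline and were taken at day 1, so no library shows the fibroblasts before induction. The labels call the replicates biological without saying what was repeated, and do not say whether the line is a single clone, so differences are set only against the spread between these samples. The members were the peaks of the 4 deposited lists that overlap the body of one of the 10 genes or its 50 kb flanks, merged into regions where they shared at least 1 bp. This gave 125 regions at the 10 genes, of 90239 regions and 21887 protein-coding genes in all.

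Fibronectin is assembled by fibroblasts into fibrils that carry cells and guide the deposition of other matrix proteins. Matricellular proteins sit in the same matrix but act mainly on cell adhesion and signalling, and activated fibroblasts of injured heart are known for making periostin and tenascin C. Elastic fibres consist of an elastin core laid down on fibrillin microfibrils, and lysyl oxidases cross-link the elastin and the collagens around it. In a cell that is being turned from a fibroblast towards a cardiomyocyte these genes belong to the starting programme.

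Across the 10 genes, accessible regions were mostly the same in the 4 libraries. Every gene had an accessible region within 1 kb of its start (at Postn, the outer start) or outer end in all 4 libraries. Of the 125 regions 82 (65.6%, exact 95% interval 56.6 to 73.9, counting error only) were called in all 4 libraries, beside 62% of all regions. The remaining 43 comprised 6 called in 3 libraries, 14 in 2 and 23 in 1. Calls per library numbered 105 and 99 in siControl replicates 1 and 2, and 103 and 90 in siChst7 replicates 1 and 2. Regions called in more libraries were stronger and broader: the median of their best −log10 q was 4.90 for those called in 1 library, 6.19 in 2, 13.6 in 3 and 48.6 in 4, and their median width ran from 246 bp to 678.5 bp. Over all regions the values were much alike, with medians of 5.17, 8.44, 12.2 and 43.7 and widths from 240 bp to 681 bp. The lowest number of calls belongs to siChst7 replicate 2, which also has the shortest peak list of the series. Its background read density, estimated from the peak list, was 0.757 times that of siControl replicate 1. Of the 6 regions missing from a single library, 5 were missing from siChst7 replicate 2, and over the whole genome 51.0% of such regions were. With 2 libraries against 2, the smallest two-sided p an exact permutation test can give is 0.333, so no difference between the siRNAs below carries a test.

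**Figure D1:**
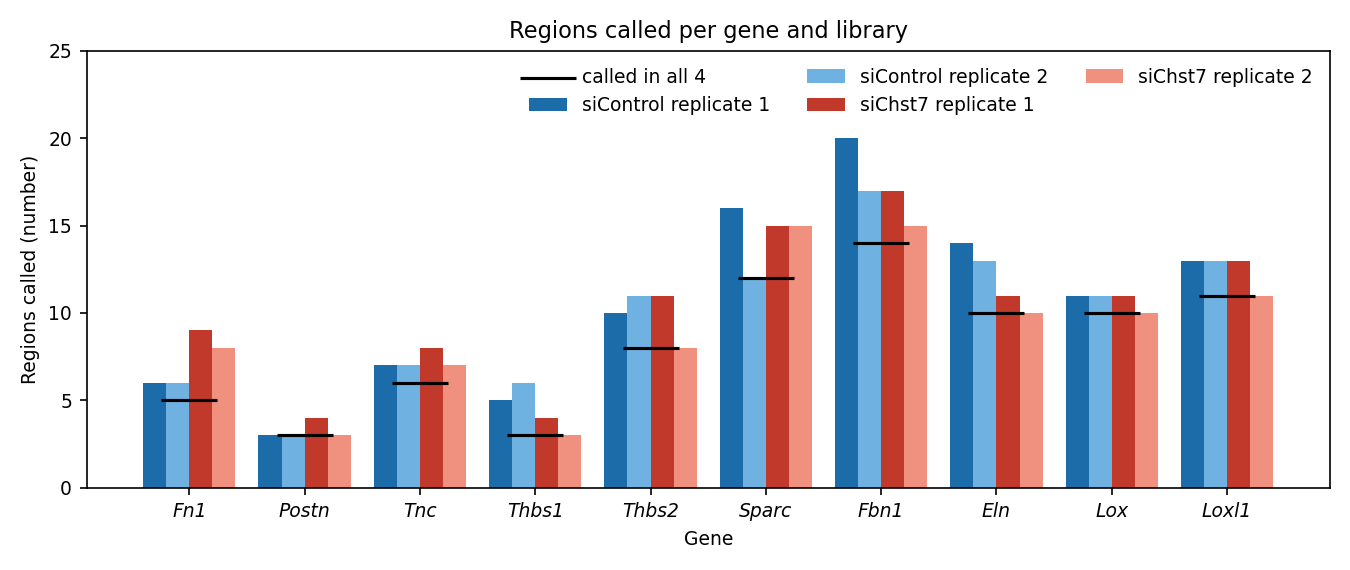
Number of accessible regions called in the body and 50 kb flanks of each gene (x axis), by library (bars: blue siControl, red siChst7), with a black line at the number called in all 4. Fbn1 has the most regions called in all 4 (14) and Postn and Thbs1 the fewest (3 each).

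The labelled cell type was set beside lists of marker genes. A region within 1 kb of the gene start (of either end where no strand was given) in all 4 libraries was found at 51.8% of all protein-coding genes. Among fibroblast markers 5 of 10 had one (Col1a1, Col1a2, Pdgfrb, Thy1 and Twist1), near that share, so this list does not identify the cell type. Such a region was found at 4 of 5 smooth muscle and myofibroblast markers (Acta2, Myh11, Myocd and Tagln) and at 3 of 8 cardiomyocyte markers (Myh6, Nppa and Tnnt2). It was found at 0 of 5 endothelial, 0 of 5 immune and 1 of 5 epithelial markers (Krt8). The fibroblast genes Col3a1, Dcn, Lum, Pdgfra and Prrx1 had none there. As these are bulk libraries, a site open in more cells and a site more open in each cell cannot be told apart.

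The number of regions differed widely between the members. Sparc had 19 regions, or 15.1 per 100 kb of body and flanks, a density above that of 96.1% of protein-coding genes. Loxl1 (15 regions, 11.95 per 100 kb), Eln (16 regions, 11.1) and Lox (12 regions, 10.5) also stood above most genes, at percentiles 86.6, 82.4 and 79.3. Thbs2 (11 regions, 8.54 per 100 kb) and Fbn1 (23 regions over 306 kb, 7.52 per 100 kb) lay nearer the median of all genes, 6.32. Fn1, Thbs1, Tnc and Postn lay below it, with 10, 6, 9 and 4 regions, and Postn had the lowest density at 3.04 per 100 kb. Of the 125 regions 84 lay in the flanks, 29 inside a member gene and 12 within 1 kb of an outer end. Called in all 4 libraries were 56 of the flank regions, 15 of those inside and 11 of those at the ends. Another protein-coding gene was overlapped by 21 of the flank regions.

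**Figure D2:**
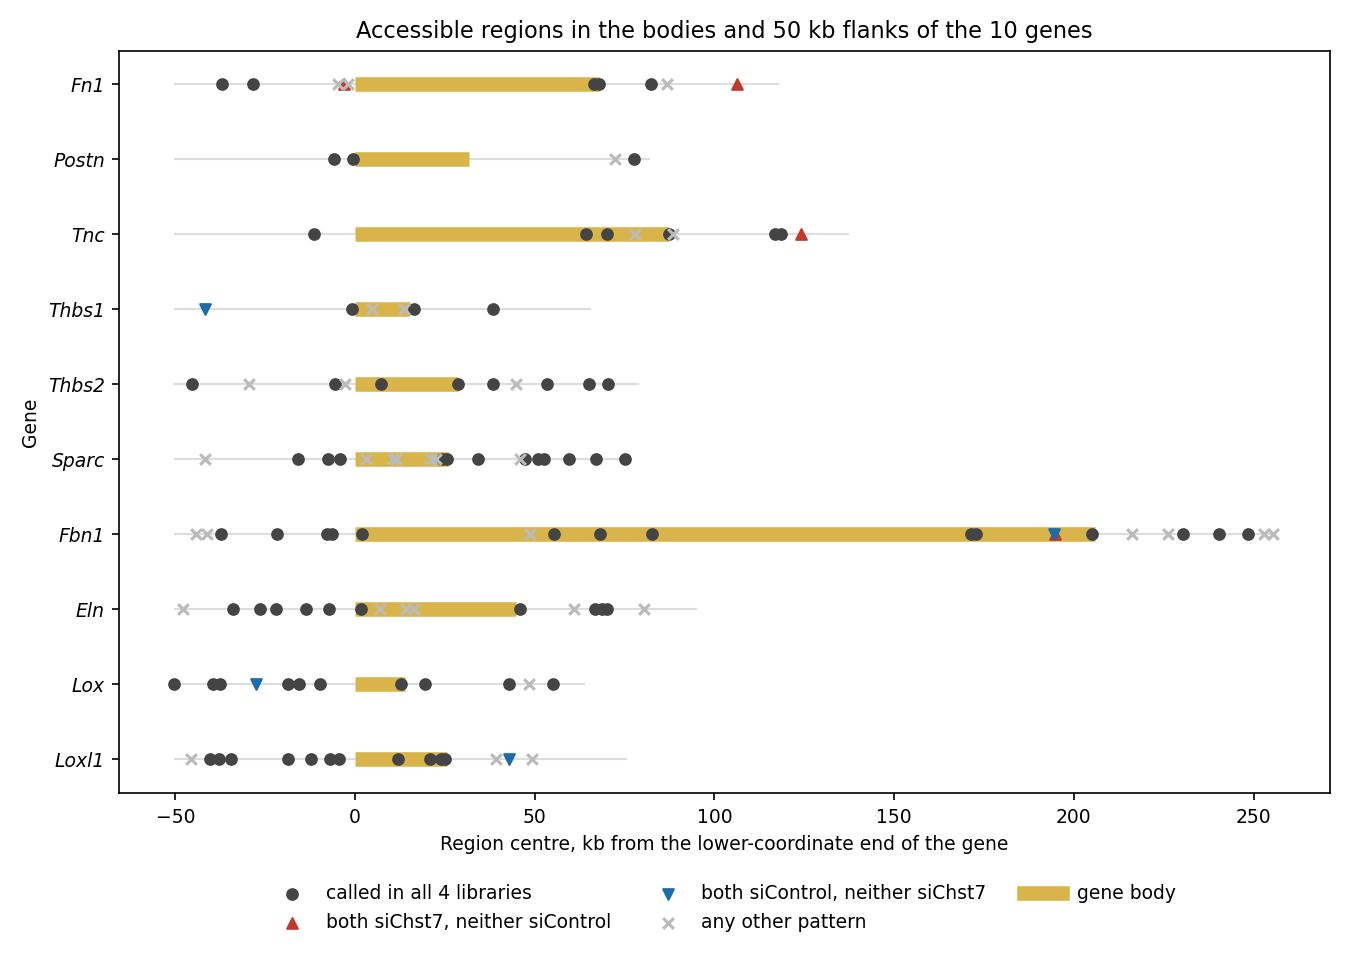
Position of the 125 regions (symbols at the region centre) relative to the lower-coordinate end of each gene, in kb, with the gene body as a yellow bar and the 50 kb flanks as a grey line. Dark circles were called in all 4 libraries, triangles in both libraries of one siRNA only, and crosses in any other pattern. The 8 regions called with one siRNA only lie in the flanks, except the adjoining pair inside Fbn1.

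All 10 members had a region called in all 4 libraries within 1 kb of the start, or of either outer end where the strand was not given, against 51.8% of all 21887 protein-coding genes under the same rule. For Postn, which also has an inner start, the rule used the outer start, and no region lay within 1 kb of the inner one. For the 5 members whose strand the RefSeq promoter table gives (Postn, Tnc, Thbs2, Sparc and Fbn1) the background was 51.4%, and for the other 5, where either end counted, it was 53.4%. Counting either end for every gene gave 54.4%. Of 32 other matrix genes, most of them matricellular, elastic fibre or cross-linking genes, 21 had such a region. With 200 bp windows around the summits in place of whole peaks the count was 9 of 10, with Thbs1 lost: the summits lay 1304 to 1366 bp outside its lower end and 1019 to 1442 bp outside its upper end. At the upper end the siControl replicate 2 summit, at 1442 bp, lay apart from the others, at 1117, 1019 and 1109 bp. No region called in all 4 libraries formed there within 1 kb. The summits at Eln also lay more than 1 kb away, 1025 to 1102 bp outside its upper end. Eln was kept because the windows around these summits merged into a region called in all 4 libraries that reached within 1 kb.

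The bases before the start of Tnc, Thbs2 and Sparc are shown because the starts of these 3 genes lie under a region called in all 4 libraries. Each run is the 250 bases before the start, on the minus strand, 5′ to 3′, from RefSeq (GRCm38.p6), and capitals mark matches to the searched motifs. The Tnc window is chr4:64047016-64047265, the Thbs2 window chr17:14694263-14694512 and the Sparc window chr11:55420081-55420330.
Tnc: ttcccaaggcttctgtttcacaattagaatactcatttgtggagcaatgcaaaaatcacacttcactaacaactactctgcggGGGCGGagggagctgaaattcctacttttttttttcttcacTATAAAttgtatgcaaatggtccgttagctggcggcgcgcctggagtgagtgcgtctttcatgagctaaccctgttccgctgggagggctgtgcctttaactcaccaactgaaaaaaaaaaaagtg
Thbs2: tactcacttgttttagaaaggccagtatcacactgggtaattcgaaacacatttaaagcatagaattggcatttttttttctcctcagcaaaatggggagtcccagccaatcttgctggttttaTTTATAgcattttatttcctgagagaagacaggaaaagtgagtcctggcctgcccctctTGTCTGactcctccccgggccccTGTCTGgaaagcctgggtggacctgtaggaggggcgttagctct
Sparc: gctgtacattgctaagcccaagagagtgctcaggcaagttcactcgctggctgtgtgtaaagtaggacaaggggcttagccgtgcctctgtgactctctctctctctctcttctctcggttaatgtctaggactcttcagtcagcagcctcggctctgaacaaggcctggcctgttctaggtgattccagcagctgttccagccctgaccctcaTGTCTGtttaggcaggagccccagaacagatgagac
The accessible region covered all 250 bases at Tnc and at Thbs2, and the 98 bases next to the start at Sparc. At Postn and Fbn1, whose letters are not shown, the region covered 6 and 0 of the 250 bases before the first start: it lay further out at Postn and inside the gene at Fbn1. Postn also has a second, inner start. Its window (54360857 to 54361106) lay under no region and holds a TATA box 21 to 26 bases before that start. At Tnc the capitals are a GC box (GGGCGG) 162 to 167 bases before the start and a TATA box (TATAAA) at 121 to 126. These positions are for the outer start of Tnc. The table holds a second, inner start, whose window (64046937 to 64047186) is also fully covered and has in addition a SMAD motif (CAGACA) on the other strand at 66 to 71. At Thbs2 they are a TATA box on the other strand at 121 to 126 and, on the other strand at 62 to 67 and 39 to 44, 2 SMAD motifs. At Sparc a single SMAD motif on the other strand lies at 31 to 36. Over the 32851 promoters of the table, searched on both strands in the same 250 bases, 32.7% hold the GC box, 12.4% the TATA box and 17.1% the SMAD motif. The AP-1 motif TGANTCA (6.75% of promoters), the TEAD motif GGAATG (12.6%), the GATA motif AGATAA (9.99%), the MEF2 motif CTAAAAATA (0.469%) and the CArG box (1.47%), the site of serum response factor, had no match in these 3 windows. The motifs do not overlap each other. These matches describe letters only. The name TATA box stands here for the letters TATAAA at any place in the window and on either strand. Binding was not measured.

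At the fibronectin gene Fn1 (1, 71585473 to 71653280, mm10), 5 of 10 regions were called in all 4 libraries. The region over its upper end, at 71652567 to 71653878, had the authors' fold enrichment of 9.51 and 10.3 in siControl and 8.65 and 9.54 in siChst7, which divides the height of the read pileup at a summit by its local background, library by library. Its −log10 q, the strength of the call, reached 106 and 121 with siControl, compared with 100.2 and 84.8 after siChst7. Because fold enrichment is scaled within each library, it was converted to a percentile among the 55924 regions called in all 4 libraries. On that scale the end of Fn1 stood at 50.5 and 56.3 in siControl and 45.3 and 55.1 in siChst7, with overlapping groups. A stronger region, at 71556715 to 71557631 and 27.8 kb from Fn1, overlapped the neighbouring purine synthesis gene Atic. It reached fold enrichments of 17.1, 18.6, 19.4 and 19.05 in siControl 1, siControl 2, siChst7 1 and siChst7 2. The libraries keep this order in all following lists of 4 values.

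The matricellular genes together had 49 regions, 32 of them called in all 4 libraries. The most accessible start among them was that of Thbs2 (17, 14665500 to 14694262), whose protein binds cell surfaces and limits angiogenesis. The region there, at 14693864 to 14694626, had fold enrichments of 14.2, 14.6, 15.0 and 14.01 and percentiles of 82.5, 83.4, 88.4 and 84.8. At Thbs2 both siChst7 percentiles were above both siControl ones, by 3.68 points on average. The summits at Thbs2 lay 61 to 68 bp from the end of the gene. The strongest call at Thbs2 lay at the other side, 5.18 kb below the gene at 14659696 to 14660317, with percentiles of 93.6, 95.4, 91.7 and 91.3, and there both siChst7 values were the lower ones. Tnc (4, 63959785 to 64047015) had its strongest call, by −log10 q, over its start at 64046689 to 64047563, with fold enrichments of 11.1, 11.4, 9.92 and 10.4. Its percentiles were 63.3, 64.0, 56.7 and 62.4, so both siChst7 values lay below both siControl values, with siChst7 replicate 2 close to siControl. A further weak region 0.973 kb beyond the start of Tnc, at 64047988 to 64048480, was called in replicate 1 of both siRNAs only, with fold enrichments of 3.65 and 3.47.

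Postn (3, 54359267 to 54391041) had the fewest regions, and none inside the gene. The region nearest its outer start, at 54358427 to 54359022, ended 0.245 kb before that start. Its fold enrichments were 11.4, 11.2, 11.4 and 10.4, at percentiles 65.3, 62.7, 68.1 and 62.2 that overlap between the siRNAs. A second region 5.58 kb outside Postn, at 54353210 to 54353685, had percentiles of 83.9, 67.1, 68.6 and 25.9. The groups overlap there, and the low value belongs to siChst7 replicate 2 alone.

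Thbs1 (2, 118111876 to 118127133), whose protein activates latent TGF-beta, had a broad region of 1925 bp over its lower end at 118110139 to 118112063. Its fold enrichments of 7.73, 7.76, 7.18 and 7.94 were moderate, at percentiles 34.9, 34.3, 30.8 and 40.1, while its −log10 q of 150.5, 145, 141 and 124 was the highest of the gene in the mean of the 4 libraries. A weaker region 0.721 kb beyond the upper end of Thbs1 had fold enrichments of 4.19, 3.44, 2.81 and 3.99. In both regions the groups overlap.

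Sparc (11, 55394159 to 55420080), which encodes a collagen-binding glycoprotein, combined the densest neighbourhood of the 10 genes with one of the weakest regions at a start. The region over its start, at 55419042 to 55420178, had fold enrichments of 4.81, 6.15, 6.08 and 6.51 and percentiles of 9.75, 20.2, 20.6 and 26.3. The groups do not overlap at the start of Sparc, but siControl replicate 2 and siChst7 replicate 1 are nearly equal there. Stronger regions lay outside the gene, among them one 7.76 kb beyond the start at 55427841 to 55428795 with fold enrichments of 14.5, 15.0, 15.0 and 15.0, and one 7.26 kb from the other end at 55386293 to 55386895 with 14.7, 16.7, 15.8 and 18.1. The strongest call of the window, by −log10 q (331, 344, 340.4 and 244), lay 48.6 kb away and overlapped the stress granule gene G3bp1.

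The elastic fibre genes had 39 regions, 24 of them called in all 4 libraries. At Fbn1 (2, 125300594 to 125506485), which encodes the main microfibril protein, the region at the start lay at 125504872 to 125506413 and had fold enrichments of 10.7, 11.0, 10.1 and 10.5. Its percentiles of 59.9, 61.0, 58.0 and 63.2 overlap between the siRNAs. The strongest call at Fbn1 was not at the start but inside the gene, 1.47 kb from its lower end at 125302061 to 125303016, with −log10 q values of 109.7, 107, 132 and 93.5. Of the 9 regions inside Fbn1 away from its ends, 6 were called in all 4 libraries.

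Eln (5, 134702595 to 134747368), with Thbs2, showed the highest fold enrichments of the member ends in siControl, and a lower one in siChst7 replicate 1. The region 0.628 kb outside its upper end, at 134747996 to 134748718, had fold enrichments of 14.9, 14.5, 10.7 and 13.3. Its percentiles were 85.6 and 82.6 in siControl and 62.8 and 81.4 in siChst7. The groups do not overlap at this end of Eln, but siChst7 replicate 2 lay only just under siControl, and the lower mean comes mostly from siChst7 replicate 1. The strongest call in the window of Eln, with −log10 q of 459, 469.9, 460.1 and 330.2, lay 13.2 kb away and overlapped Limk1, a kinase of the actin cytoskeleton.

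Of the regions of the cross-linking enzymes, 21 of 27 (77.8%, exact interval 57.7 to 91.4, counting error only) were called in all 4 libraries. This was the largest share among the gene groups described, but its interval includes the 62% of all regions. The region over the upper end of Lox (18, 52516060 to 52529867), at 52527574 to 52530045, was after merging the broadest of the 12 regions at member ends, at 2472 bp. The narrowest peak within this Lox region measured only 192, 924, 815 and 712 bp. The fold enrichments of the region, 8.61, 8.42, 8.73 and 8.94, gave percentiles of 43.0, 40.1, 46.0 and 49.9, with both siChst7 values above both siControl values. The strongest region near any member by fold enrichment, 25.1, 24.9, 24.6 and 22.6, lay 49.9 kb below Lox and overlapped the neighbouring gene Srfbp1, with all 4 percentiles above 99. At Loxl1 (9, 58287723 to 58313212), whose enzyme acts on elastin, the region over the upper end at 58312173 to 58313497 had fold enrichments of 8.37, 8.38, 7.997 and 8.56. Its percentiles of 40.7, 39.9, 39.1 and 46.4 overlap between the siRNAs, and its summits lay 4 to 14 bp from the end of the gene.

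**Figure D3:**
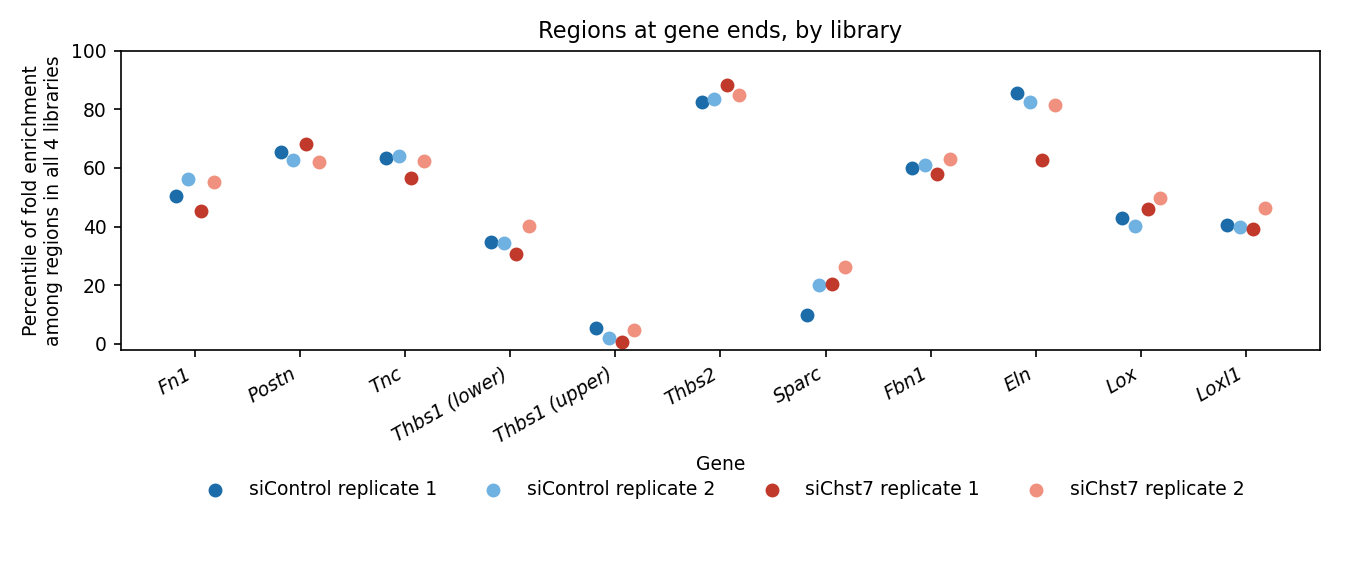
Percentile of the authors' fold enrichment, among regions called in all 4 libraries, for the region at the end of each gene (x axis; Thbs1 has one at each end), 1 point per library (blue siControl, red siChst7). Thbs2 and Eln sit highest, Sparc and the upper end of Thbs1 lowest, and the siChst7 replicate 1 value of Eln (62.8) stands apart from the other 3.

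Between the siRNAs, regions called in both libraries of one group and neither of the other were mostly weak. In the siChst7 direction there were 4 (3.2% of 125, against 1.24% of all regions), 2 at Fn1 and 1 each at Tnc and Fbn1. In the siControl direction there were 4 (3.2%, against 2.84% of all regions), 1 each at Thbs1, Fbn1, Lox and Loxl1. By gene, 3 of 10 members had a siChst7-only region in their window, against 8.53% of protein-coding genes, and 4 of 10 a siControl-only region, against 20.3%. Postn, Thbs2, Sparc and Eln had neither. With a −log10 q of at least 5, or with lists of equal length, 0 of the 4 siChst7-only calls remained, while 1.21% and 1.96% of all regions were such under these settings. The siChst7-only count was 11 without siChst7 replicate 2 and 6 without siChst7 replicate 1, when 6.53% and 3.55% of all regions were such. The siControl-only count was 10 without siControl replicate 1, 13 without siControl replicate 2 and 9 without siChst7 replicate 1, beside 9.03%, 7.89% and 8.60% of all regions.

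The most strongly called of the 8 was a siControl-only region 17.0 kb above Loxl1, at 58330232 to 58330717, with fold enrichments of 6.35 and 9.68 and −log10 q of 10.9 and 23.5 in siControl replicates 1 and 2. It was the only one of the 8 that kept its call under each of 6 other ways of filtering or merging the peaks. The siControl-only region 41.6 kb below Thbs1, at 118069954 to 118070317, had fold enrichments of 6.51 and 5.33 and kept its call under 5 of the 6. It was lost with peaks of at least 200 bp, since its siControl replicate 2 peak measures 183 bp. The siControl-only region near Lox, 27.5 kb away and overlapping Srfbp1, had fold enrichments of 5.14 and 3.55, with −log10 q of 6.62 and 2.80, and kept its call under 3 of the 6.

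The siChst7-only regions had fold enrichments below 5. At Fn1 one lay 2.82 kb below the gene at 71582365 to 71582653, with fold enrichments of 2.92 and 3.01 in siChst7 replicates 1 and 2 and −log10 q of 3.55 and 2.80. The other lay 38.2 kb above Fn1 at 71691504 to 71692237, with 3.96 and 4.83. The siChst7-only region 36.8 kb above Tnc, at 64083800 to 64084176, had the very same fold enrichments, 3.96 and 4.83. In both regions the summit pileup solved from the deposited fold and p was 11 in each siChst7 library, over the genome-wide background of 2.03 and 1.48. At the second Fn1 region the peaks of the siChst7 libraries shared less than 50 bp, and neither a 50 bp overlap nor summit windows kept the call. Of the 6 other ways of filtering or merging, 3 kept the call of the first Fn1 region, 1 that of the second and 4 that of the Tnc region.

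Inside Fbn1 a siControl-only region (125494903 to 125495226) and a siChst7-only region (125495241 to 125495513) lay 14 bp apart. The first had fold enrichments of 4.80 and 3.20 in siControl, the second 4.62 and 4.43 in siChst7. The summit pileups were 13 and 8 in siControl and 13 and 10 in siChst7. When peaks separated by up to 100 bp were merged, or when summit windows were used, the pair became a single region called in all 4 libraries. Which of the 2 readings of the Fbn1 pair a list gives thus depends on how peaks are merged. Of the 6 other ways, 2 kept the siControl-only call and 1 the siChst7-only call.

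Among the 82 regions called in all 4 libraries, 20 (24.4%) had both siChst7 percentiles above both siControl percentiles, against 19.5% of all such regions. In the reverse direction there were 9 (11.0%), against 18.4%. The groups overlapped in the other 53. The median difference of mean percentiles, siChst7 minus siControl, was 0.51 points over the members and 0.07 points over all shared regions. Libraries of different siRNAs differed at the member regions by a median of 4.74 points, which lies between the 3.25 points that separate the siControl replicates and the 5.34 points that separate the siChst7 replicates. Over all shared regions the libraries of different siRNAs differed by 5.80 points, and the replicates by 5.14 in siControl and 5.73 in siChst7. The counts rest on having 2 libraries a group. Without siControl replicate 1 they were 32 higher and 19 lower, without siControl replicate 2 28 and 26, without siChst7 replicate 1 33 and 28, and without siChst7 replicate 2 34 and 27, as the shares over all shared regions also rose, to between 33.2% and 37.5%.

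**Figure D4:**
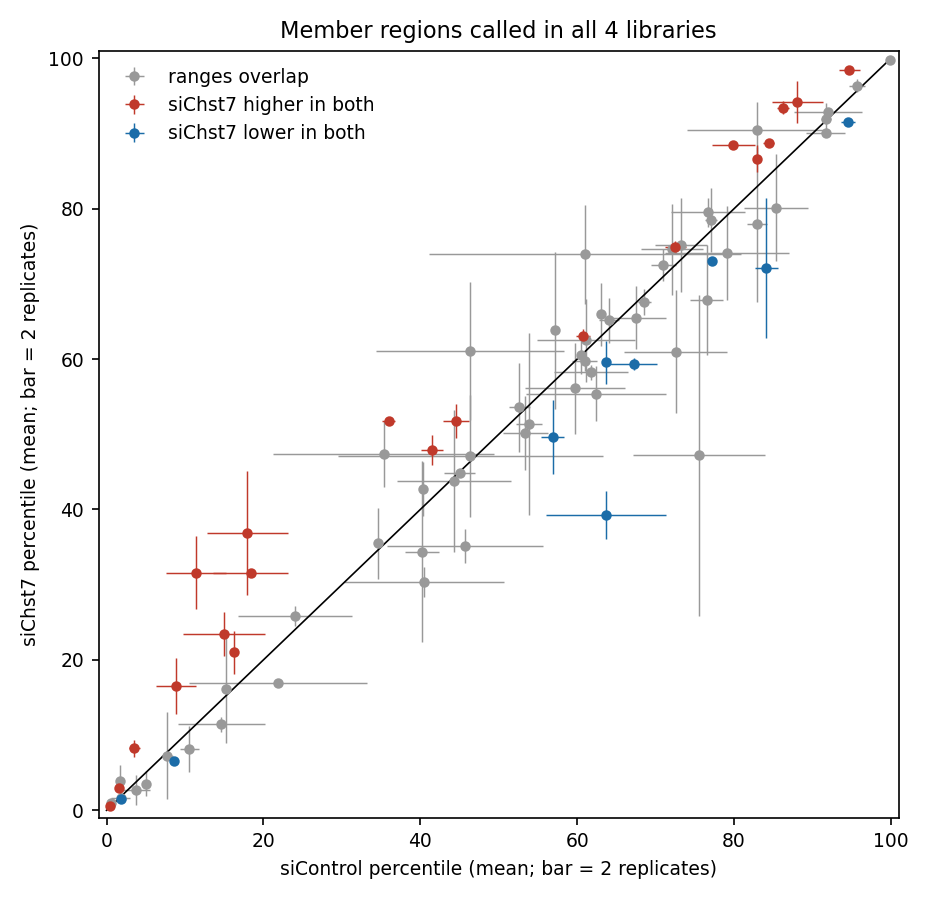
Percentile of fold enrichment in siControl (x axis) and siChst7 (y axis) for the 82 member regions called in all 4 libraries, as means with bars that span the replicates. The diagonal marks equal values. Red points (20) are higher and blue points (9) lower in both siChst7 libraries, and most of both lie near the diagonal.

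Among the shared regions whose groups do not overlap, the largest differences above siControl were at Thbs2 and Lox, away from the starts. The region 9.31 kb beyond the start of Thbs2, at 14703572 to 14704103, had percentiles of 15.3 and 7.54 in siControl and 26.7 and 36.5 in siChst7. The Thbs2 region 36.2 kb beyond the start, at 14730445 to 14730951, had 12.8 and 23.1 against 45.1 and 28.7. The fold enrichments of these Thbs2 regions ran from 4.54 to 8.63, below the median of all shared regions in every library. Below Lox, the region at 52497304 to 52497650 had percentiles of 35.1 and 36.8 in siControl and 52.3 and 51.3 in siChst7. There the replicates lie closer together than the groups, and the same holds for the next Lox region at 52500134 to 52500925 only on the siChst7 side, with 13.6 and 23.1 against 31.0 and 32.1. At Fn1 the region 36.5 kb below the gene, at 71547670 to 71548993, had 82.7 and 77.1 against 88.3 and 88.6. Of these 5 regions, 4 kept their direction under each of 6 other ways of ranking, filtering or merging, and the Thbs2 region at 9.31 kb lost it with summit windows.

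The largest difference below siControl without overlap was 37.1 kb from Fbn1, at 125263158 to 125263493. Its percentiles there were 71.3 and 56.0 in siControl and 42.5 and 36.1 in siChst7, from fold enrichments of 12.3, 10.3, 8.36 and 7.51. The end of Eln, described above, came next with a mean difference of -12.0 points. The Tnc region 31.0 kb beyond the start, at 64078048 to 64078533, had percentiles of 64.2 and 70.2 against 58.5 and 60.1. The region 14.1 kb above Fn1, at 71667413 to 71668325, had 55.4 and 58.3 against 54.5 and 44.7, and the region 37.1 kb below Lox, at 52478043 to 52478956, had 76.9 and 77.6 against 73.4 and 72.8. Ranking by −log10 q in place of fold enrichment ended the direction at these last Fn1 and Lox regions. The other 19 member regions without overlap differed by at most 8.49 points.

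By gene the directions were mixed. Of 12 shared regions Sparc had 5 higher and 0 lower with siChst7. Thbs2 had 4 and 1 of 8, Lox 3 and 1 of 10, and Fn1 3 and 1 of 5. Tnc had 0 higher and 2 lower of 6, Fbn1 2 and 1 of 14, Eln 2 and 2 of 10, and Loxl1 1 and 1 of 11. Postn and Thbs1, with 3 shared regions each, had none in either direction. Over all shared regions 19.5% were higher and 18.4% lower. The 5 Sparc regions differed by between 2.38 and 8.49 points, and regions of a gene share its chromosome neighbourhood and libraries, so they are not independent of each other. The difference of 2.38 belongs to the region 48.6 kb away that overlapped G3bp1.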

How the data were processed

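The authors deposited 1 peak list per library on the build mm10. Per the submitters' processing notes the tools included MACS3, Bowtie, HOMER, SAMtools and bedtools, with versions and settings not given here. Each peak has a deposited score (10 times its −log10 q), fold enrichment (a ratio of summit pileup to local background), −log10 p and −log10 q and summit, all the authors' own values within that list, with a lowest −log10 q just above 2. The lists hold 73902 and 75696 peaks in siControl and 74402 and 66165 in siChst7, and read totals are not given. Reads of 75 bp were sequenced, per the labels.

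Peaks on chromosomes 1 to 19, X and Y were merged at 1 bp overlap (Python 3.11.15, pandas 2.3.3), with the highest −log10 q peak standing for a region in a library. Gene positions and promoter letters are from RefSeq (GRCm38.p6). All 10 members matched the gene table, which holds no exons or strand. The promoter table gave the strand and letters of 5. Percentiles were taken over regions called in all 4 libraries. Background pileups were solved from the steps of fold enrichment of peaks with −log10 q under 8, and summit pileups from fold and p within 0.02 on the −log10 scale. The solved backgrounds put 34.2% and 45.8% of the peaks under 8 on whole steps in siControl, and 35.7% and 33.1% in siChst7. Background density was estimated as this pileup divided by the narrowest peak width, 183 and 180 bp in siControl and 189 and 187 bp in siChst7. The calls were tested on simulated data. The simulated differences were large and the noise between replicates small, so this tests the code and not the calls at these genes. Members, lists and rules were chosen with earlier results of these data known. Named were all members, their end and strongest regions, all regions called with one siRNA only, and the 5 shared regions with the largest non-overlapping difference in each direction. The Postn region at 5.58 kb and the Sparc regions beside the gene were named after their values were seen.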

Additional observations from a re-analysis of the deposited data

How the results depend on the processing

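The number of member regions (125), the share called in all 4 libraries (65.6%), the number of members with a region at an end (10) and the shared regions higher (20) and lower (9) with siChst7 moved little with the filters and merging rules tried, except as given here. With a −log10 q of at least 5, siChst7-only regions numbered 0 and siControl-only regions 2, beside 1.21% and 2.70% of all regions. With equal list length siChst7-only regions numbered 0 (1.96% of all regions), and with peaks of at least 200 bp 1 (1.36%). With 200 bp summit windows there were 2 of each, beside 1.54% and 3.10%. Flanks of 10 kb gave 58 regions, 39 of them called in all 4 libraries, with 12 higher and 4 lower. They held 2 siChst7-only regions and 1 siControl-only region. Flanks of 100 kb gave 179 regions, 115 of them called in all 4 libraries, with 26 higher and 16 lower. The shares over the whole genome are the same for each flank: 19.5% higher and 18.4% lower of all shared regions, and 1.24% siChst7-only and 2.84% siControl-only of all regions. Leaving out 1 library at a time gave 116 to 124 regions, 68.6% to 71.6% called in all remaining libraries, 10 of 10 members with a region at an end each time, 4 to 11 siChst7-only regions, 4 to 13 siControl-only regions, 28 to 34 higher and 19 to 28 lower. With 1 library left in a group these calls ask for less, and over all regions they became more frequent too. The siChst7-only count was highest (11) without siChst7 replicate 2 and the siControl-only count (13) without siControl replicate 2.

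Comparing only libraries of the same replicate number, as a replicate block would, gave 25 higher and 15 lower of 82, beside 27.5% and 26.6% of all shared regions. The differences between replicates 1 and 2 in the 2 groups were nearly uncorrelated over the shared regions (r = 0.012, a description), so the numbers were not taken as pairs. The merging of gaps up to 100 bp was added after the data were seen. The group-specific calls have summit pileups of 8 to 20 where these could be solved, and siChst7 replicate 2 had the lowest estimated background density. The part of depth in these calls was not tested.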

Other observations

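The 32 other matrix genes were chosen with earlier results known. Of these, 4 had a siChst7-only region in their window, beside 8.53% of protein-coding genes. A siControl-only region was found for 10 of them, beside 20.3%. The siChst7 side held Fbln5 and Nid1, encoding an elastic fibre protein and a basement membrane linker, and also Tnn and Ltbp4, which had 1 region on each side. The siControl side held Tnr and Fbln2 with 2 regions each, and Comp, Tnxb, Fbln1, Emilin1, Mfap2 and Mfap5 with 1 each. Of the 478 regions in these windows, outside those of the 10 members, 65.7% were called in all 4 libraries, against 65.6% at the members. Their shared regions were 22.0% higher and 20.1% lower with siChst7, against 24.4% and 11.0% at the members, and the difference between these 2 gene sets was not tested.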
